A study of Mus musculus with 13 samples.

Results

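Integrins are the adhesion receptors through which a T cell holds on to other cells and to the matrix, and 10 genes that encode integrin subunits were followed across T cells sorted from mouse tumors. The members were Itgae, Itgb7, Itgax, Itgb2, Itgal, Itga4, Itgb1, Itgav, Itga1 and Itgb3, taken as the rows of the deposited expression table that carry these symbols. All 10 were found among the 12963 genes listed, and all 10 were among the 12667 genes tested, those that reached 10 normalized reads in 2 or more libraries. The table gives read counts divided by 1 size factor per library, called normalized reads here. The tumors were B16-F10 melanomas, a transplanted mouse line grown under the skin. All mice carried the Foxp3-EGFP-DTR allele, in which the Foxp3 gene, the lineage factor of regulatory T (Treg) cells, also drives a green fluorescent protein and the receptor for diphtheria toxin (DTx). Mice given DTx lose their Treg cells, and mice given PBS keep them, so every group, controls included, came from animals with the modified Foxp3 locus. The groups were Treg cells of PBS mice (Treg PBS, n = 3 libraries), CD4 conventional T (Tconv) cells of PBS mice (CD4 PBS, n = 2), CD8 T cells of PBS mice (CD8 PBS, n = 2), and their counterparts sorted from DTx mice, CD4 DTx (n = 3) and CD8 DTx (n = 3). Each was defined by its sort gate in 1 transplanted tumor model, and the labels do not name the animals behind the libraries. The study's methods describe replicates taken on separate days, and do not say whether a replicate number marks a day.

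An integrin works as a pair of 1 alpha and 1 beta chain, and the pair decides what the cell can bind. Itgb2 chains pair with Itgal to form LFA-1, the receptor for the ICAM proteins of other cells. They also pair with Itgax, the alpha chain CD11c, in a receptor that is best known from dendritic cells. Itgae, the alpha chain CD103, pairs with Itgb7 in a receptor that binds the epithelial protein E-cadherin and marks many tissue-resident T cells and Treg cells. Itgb1 is the shared partner of a large group of matrix receptors, among them the collagen receptor with Itga1 and the receptor for fibronectin and VCAM1 with Itga4. Itgav pairs with several beta chains, Itgb3 included, and its receptors bind vitronectin and the latent form of TGF-beta.

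The labels were borne out by lineage transcripts. Foxp3 ranged from 1178 to 1896 normalized reads in Treg PBS and was at most 12.1 in the other 10 libraries. Cd4 was at least 10595 in every library of the 3 CD4 T cell groups, and Cd8a at least 23475 in every CD8 library. Libraries held 15947556 to 34140486 recovered reads, and 3 reads, taken as the detection floor, were worth 1.98 to 4.10 normalized reads (counting error only). Transcripts of the Y chromosome were above this floor in the library numbered 3 of every group and in no other library, so each group held 1 such library and the number 3 marks a difference shared by all groups. The CD4 PBS and CD8 PBS libraries were numbered 2 and 3, and those of the other groups 1, 2 and 3. The library numbered 3 was thus 1 of 2 in each PBS Tconv group and 1 of 3 in the others, and no PBS Tconv library was numbered 1. Among markers of other cells, the summed level of 5 NK cell genes was 20307 to 34587 in CD8 DTx, 1244 to 7537 in CD4 DTx, 1096 to 6649 in CD8 PBS, 239 to 568 in CD4 PBS and 98.2 to 338 in Treg PBS. The summed level of 10 macrophage and dendritic cell genes was 1323 to 1971 in CD8 DTx, 682 to 2060 in CD4 DTx, 756 to 1967 in CD8 PBS, 1171 to 1252 in CD4 PBS and 1446 to 3699 in Treg PBS. Of that list, Clec9a was at 0 in all groups and Fcgr1 at 0 in CD8 PBS, CD4 DTx and CD8 DTx. Xcr1, a marker of cross-presenting dendritic cells, was at 374 to 657 in the DTx libraries, 278 to 337 in Treg PBS and 21.8 to 139 in the PBS Tconv libraries. The 4 listed genes of 6 melanocyte markers summed to 727 to 1197 in Treg PBS, 435 to 448 in CD4 PBS, 170.6 to 629 in CD8 PBS and 60.7 to 170.2 in the DTx libraries. In sorted populations, fewer cells of a type and less RNA per cell cannot be told apart.

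Levels of different genes were compared per kb of exon. On that scale Itgb7 was the most abundant of the 10 transcripts in all 3 PBS groups, at a mean of 17336 (Treg PBS), 11887 (CD4 PBS) and 11812 (CD8 PBS) normalized reads per kb. Itgb2 came next in each of them, at 9029, 6860.3 and 6709 per kb. In CD4 DTx the order changed, with Itgb1 first at 21069 ± 10682 per kb (SD, n = 3) and Itgb7 next at 19775 ± 7616, and these did not differ beyond their spread. In CD8 DTx Itgb2 was first at 13605 ± 2249 per kb, followed by Itgb7 at 12143 ± 4929 and Itgb1 at 10828 ± 2858, whose ranges overlapped. At the other end, Itgax was the lowest of the 10 in Treg PBS, CD4 PBS and CD4 DTx, Itga1 in CD8 PBS, and Itgav in CD8 DTx.

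**Figure D1:**
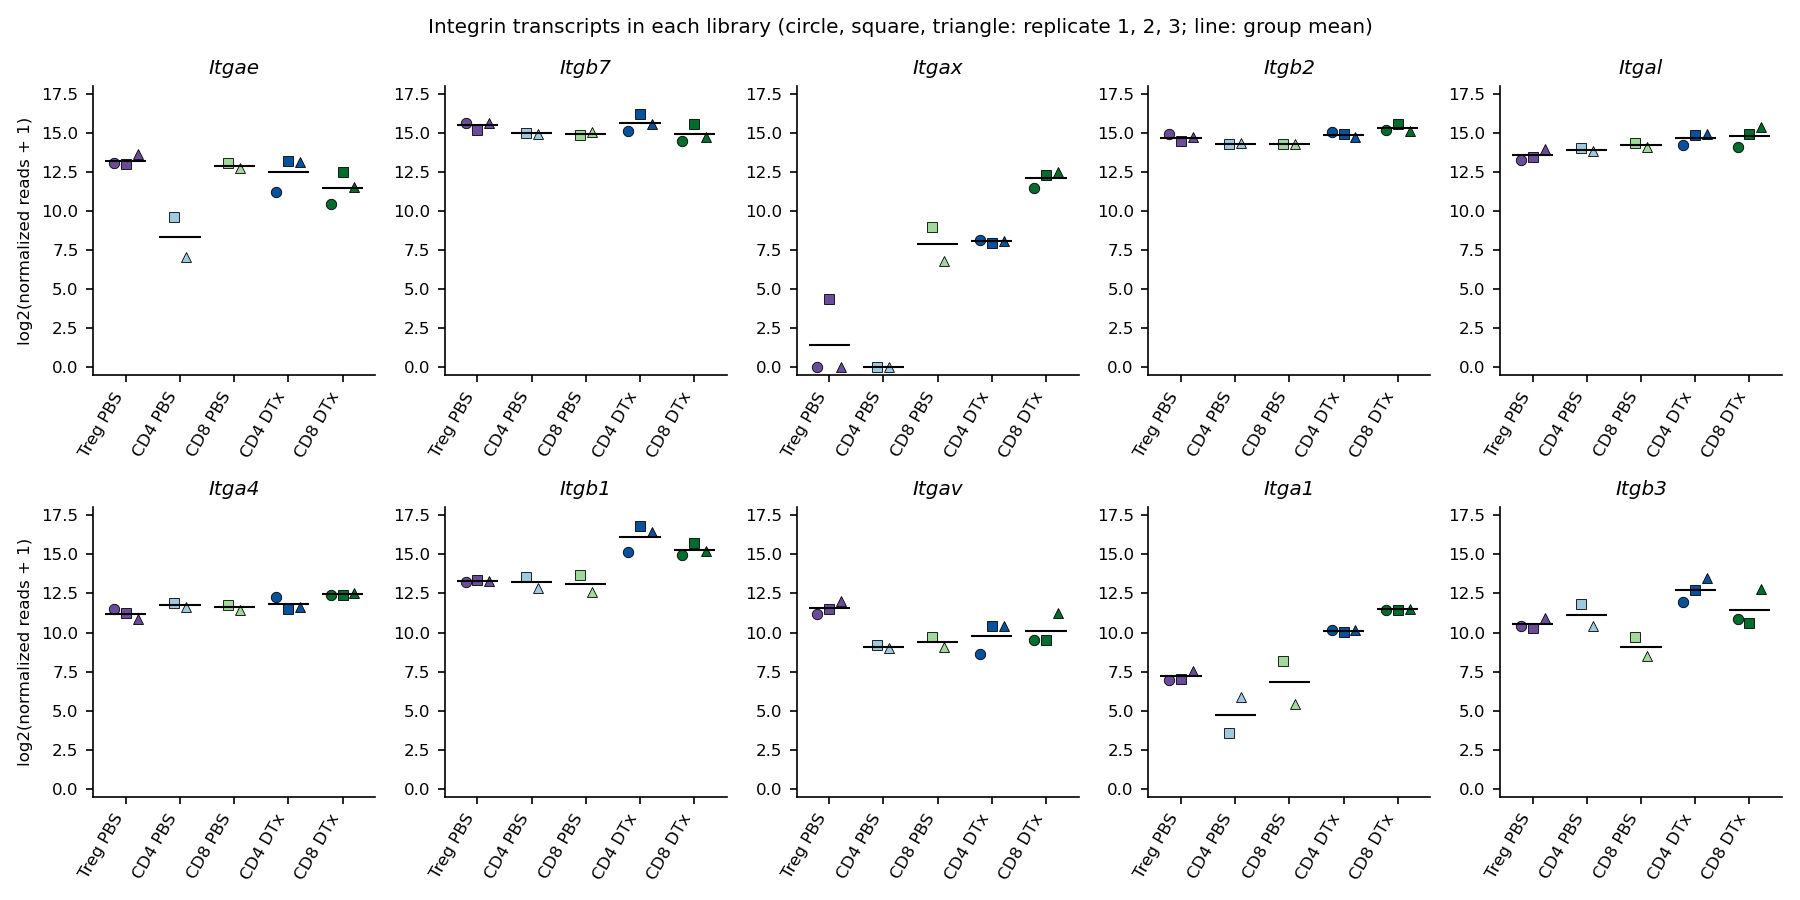
Each panel plots 1 integrin gene, with log2(normalized reads + 1) on the vertical axis and the 5 groups on the horizontal axis. Points are libraries, shaped by replicate number, and the line is the group mean of the plotted values. Itgb7, Itgb2, Itgal and Itga4 lie within a narrow band in all groups, whereas Itgax runs from 0 in both CD4 PBS libraries to 5785 normalized reads in CD8 DTx, and Itgb1 and Itga1 lie higher in every DTx library than in every PBS library.

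The effect of Treg cell ablation was examined first. In CD4 Tconv cells 4 of the 10 integrins rose after DTx, Itgax, Itga1, Itgae and Itgb1, and none fell. In CD8 T cells 5 of the 10 rose, Itga1, Itgax, Itgb3, Itgb1 and Itgb2, and none fell. Itgax, Itga1 and Itgb1 rose in both. Over all tested genes, 12.7% passed in either direction in CD4 DTx vs CD4 PBS, and 10.9% in CD8 DTx vs CD8 PBS (limma, adjusted p under 0.05), with 8.64% and 7.4% passing as higher. Counted by the study's own rule, which also asks for more than a 4-fold difference, 4 members passed in each comparison, against 6.85% and 5.46% of all tested genes. Every DTx library lay above both PBS libraries for 8 of the 10 members in CD4 cells, against 23.4% of all tested genes, and for 6 of the 10 in CD8 cells, against 22.8%. For 1 member, Itgae in CD8 cells, every DTx library lay below both PBS libraries, against 20.8%. The median log2 fold change of the members was 1.18 in CD4 cells and 0.92 in CD8 cells, and that of all tested genes was -0.04 and -0.03.

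**Figure D2:**
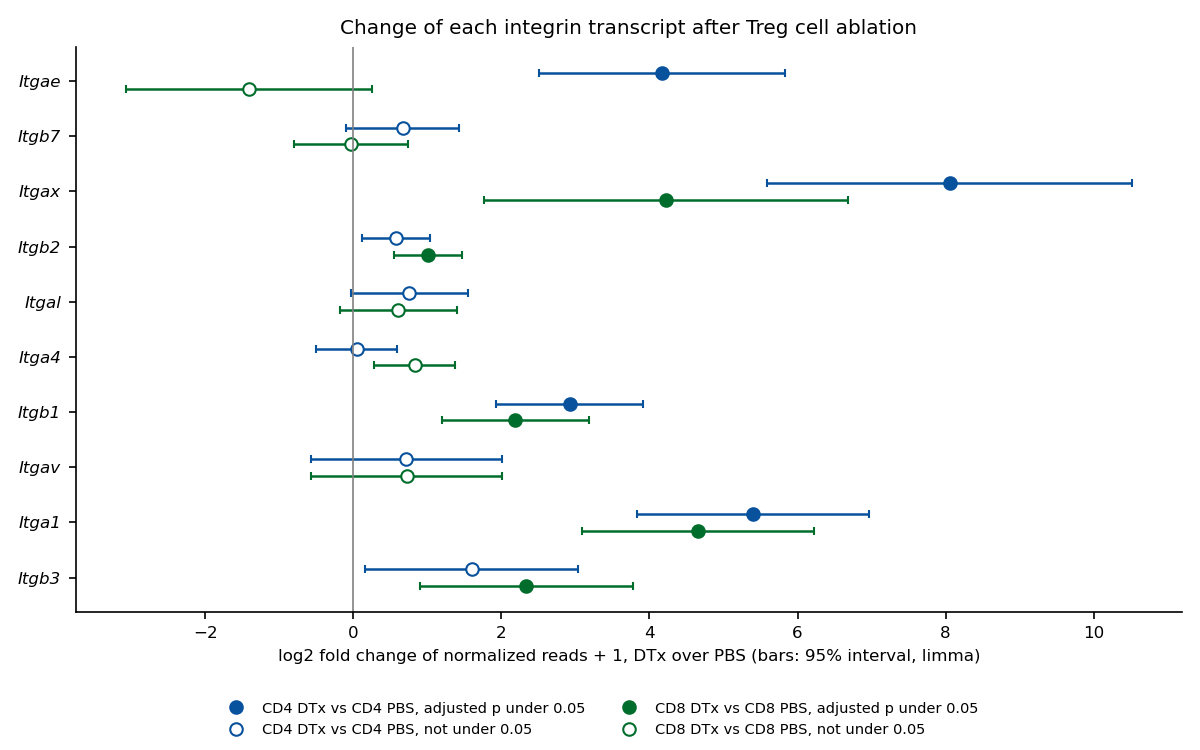
The log2 fold change of normalized reads + 1, DTx over PBS, is plotted for each integrin in CD4 Tconv cells (blue) and CD8 T cells (green), with 95% intervals from limma. Filled points passed at an adjusted p under 0.05. Itgb1, Itga1 and Itgax are filled and to the right of 0 in both cell types, and Itgae lies at 4.17 in CD4 cells and at -1.41 in CD8 cells.

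By group mean, Itgb1, the common beta chain of the matrix receptors, became the first of the 10 transcripts per kb in CD4 DTx. In CD4 DTx replicate 1 Itgb7 was higher, at 13349 per kb against 9397 for Itgb1. The CD4 PBS libraries held 12112 and 7425 normalized reads of Itgb1, against 35848, 115816 and 89471 in CD4 DTx. In CD8 cells it was at 12842 and 6105 in CD8 PBS and at 32125, 53358 and 38449 in CD8 DTx. The Treg PBS libraries, at 9766, 10426 and 9872, lay within the range of the PBS Tconv libraries, and no DTx library overlapped with any PBS library. Itgb1 rose with a log2 fold change of 2.92 in CD4 cells (SE 0.46, BH-adjusted p = 0.00132 by limma) and of 2.19 in CD8 cells (SE 0.46, BH-adjusted p = 0.0103 by limma). The call in CD8 cells was lost without CD8 PBS replicate 3, the lower of the PBS pair (1.65, BH-adjusted p = 0.188 by limma).

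Itga1, which joins Itgb1 to form a receptor for collagen and marks a part of tissue-resident T cells, changed from a low level. It was at 10.9 and 57.5 normalized reads in CD4 PBS, against 1141, 1061 and 1148 in CD4 DTx. In CD8 PBS it was at 290.4 and 42.7, and at 2805, 2818 and 2918 in CD8 DTx. The DTx libraries of each cell type were close to each other and far above the PBS libraries, and the Treg PBS libraries, at 126, 131 and 184, were also below every DTx library. Itga1 rose with a log2 fold change of 5.40 in CD4 cells (SE 0.72, BH-adjusted p = 5.10e-04 by limma) and of 4.66 in CD8 cells (SE 0.72, BH-adjusted p = 0.00217 by limma). Both calls held with each library left out in turn.

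Itgax, which encodes the alpha chain CD11c, is also carried by some activated CD8 T cells and NK cells. It was at 0 in both CD4 PBS libraries and at 281, 247 and 267 normalized reads in CD4 DTx. In CD8 cells it was at 502 and 109 in CD8 PBS and at 2852, 5134 and 5785 in CD8 DTx. Among Treg PBS libraries it was at 0, 19.5 and 0, so the CD8 DTx libraries stood above all others and the CD4 DTx libraries lay within the range of CD8 PBS. Against the detection floor, Itgax was at least 64.7-fold higher in CD4 DTx than in CD4 PBS (BH-adjusted p = 6.86e-04 by limma), with a floor of 4.10 normalized reads per library. In CD8 cells its log2 fold change was 4.22 (SE 1.13, BH-adjusted p = 0.0331 by limma). That call was lost when any 1 of the 3 CD8 DTx libraries or CD8 PBS replicate 3 was left out, with adjusted p-values of 0.0644, 0.101 and 0.0510 without CD8 DTx replicates 1, 2 and 3 and 0.348 without CD8 PBS replicate 3 (limma). It was also lost with DESeq2 on recovered reads (adjusted p = 0.0659), with a pseudocount of 0.5 (0.0641) and without the mean trend (0.0542), the last 2 by limma.

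**Figure D3:**
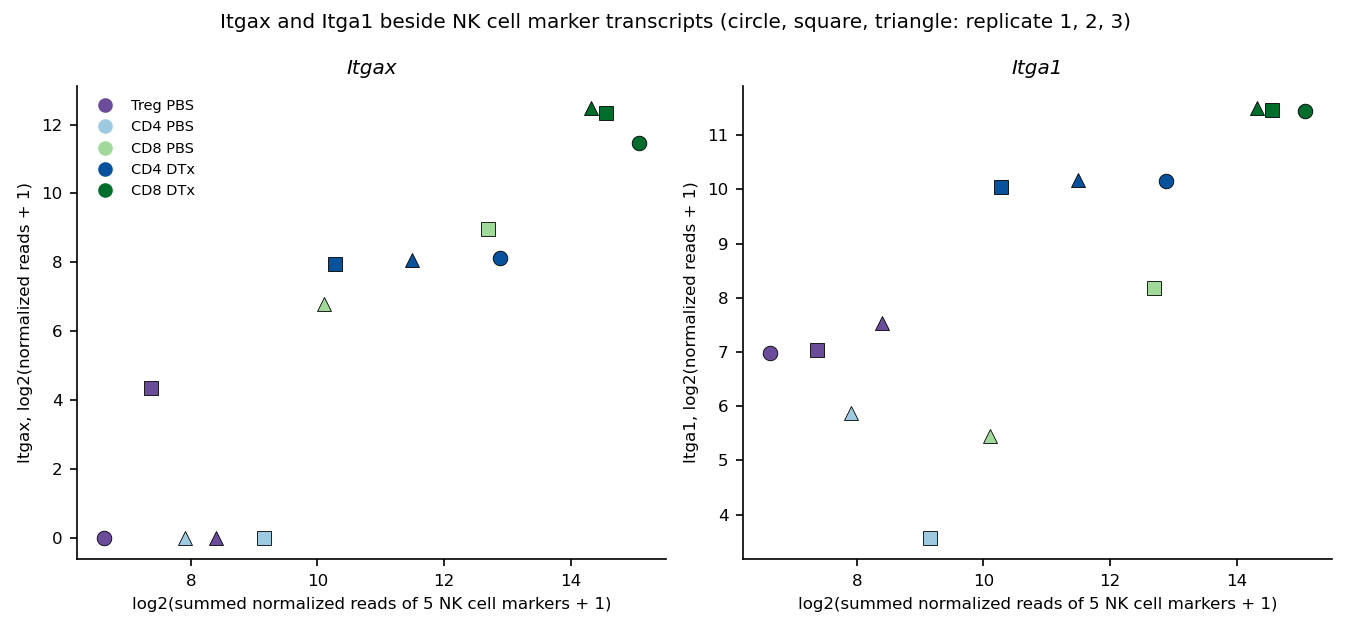
For each of the 13 libraries, log2(normalized reads + 1) of Itgax (left) and Itga1 (right) is plotted against the log2 of the summed normalized reads + 1 of 5 NK cell markers, coloured by group. The 3 CD8 DTx libraries, at 20307 to 34587 for the marker sum, are at the upper right of both panels. CD4 DTx libraries of very different marker sums, 1244 to 7537, share nearly the same Itgax and Itga1 levels. In CD8 PBS the library with the higher marker sum has the higher Itgax and Itga1 levels.

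The summed NK cell markers, Itgax and Itga1 were all highest in CD8 DTx. The marker sums of CD8 PBS and CD4 DTx overlapped, as did their Itgax levels, whereas Itga1 was at 42.7 to 290.4 in CD8 PBS and 1061 to 1148 in CD4 DTx. The NK marker sum was carried in CD8 DTx by Klrc1, an inhibitory receptor that activated CD8 T cells also express, at 18320.4 to 34275 normalized reads. Ncr1, the marker held to be most particular to NK cells, was at 17.6 to 2147 in CD8 DTx and at 25.3 to 956 in CD8 PBS, so those ranges overlapped. Within CD4 DTx, Itgax was at 281 in the library with a marker sum of 7537 and at 247 in the library with a sum of 1244. Within CD8 PBS, the library with a sum of 6649 held 502 of Itgax and 290.4 of Itga1, and that with 1096 held 109 and 42.7. Within CD8 DTx, Itgax was lowest, at 2852, in the library with the highest sum, 34587. Cd8a was at 103 to 1302 in CD4 DTx and at 26.4 to 31.4 in CD4 PBS, far below the 28002 to 48329.5 of CD8 DTx. The summed macrophage and dendritic cell markers of CD8 DTx overlapped with those of CD8 PBS, but members of the list went different ways. Xcr1 rose in CD4 cells (log2 fold change 3.58, BH-adjusted p = 4.999e-04 by limma) and in CD8 cells (2.31, BH-adjusted p = 0.00924 by limma). In CD8 cells Cd68 was at 607 to 1055 after DTx and 124 to 273 in PBS, and Lyz2 at 51.0 to 198 and 497 to 1321, and neither passed. The part of other cells in the Itgax and Itga1 results was not tested.

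Because Itgb1, Itga1 and Itgax rose together in both cell types, the 250 bases upstream of their annotated starts are shown, from RefSeq on the build GRCm38.p6. Windows were matched by symbol for 6 of the 10 members, Itga1, Itga4, Itgav, Itgax, Itgb1 and Itgb7. Each is written 5′ to 3′ on the gene's strand, ending at the base before the start, with motif matches in capitals.
Itgb1, chr8:128685404-128685653, plus strand: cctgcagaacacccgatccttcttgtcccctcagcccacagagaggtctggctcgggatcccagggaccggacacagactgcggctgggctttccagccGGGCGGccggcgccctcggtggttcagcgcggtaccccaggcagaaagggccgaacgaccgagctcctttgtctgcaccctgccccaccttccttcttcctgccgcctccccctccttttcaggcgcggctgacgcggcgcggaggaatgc
Itga1, chr13:115101965-115102214, minus strand: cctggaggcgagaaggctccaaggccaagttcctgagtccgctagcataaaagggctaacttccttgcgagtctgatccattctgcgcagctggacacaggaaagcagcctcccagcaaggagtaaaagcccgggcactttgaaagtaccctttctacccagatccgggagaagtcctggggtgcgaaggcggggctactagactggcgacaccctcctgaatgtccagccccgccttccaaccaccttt
Itgax, chr7:128129300-128129549, plus strand: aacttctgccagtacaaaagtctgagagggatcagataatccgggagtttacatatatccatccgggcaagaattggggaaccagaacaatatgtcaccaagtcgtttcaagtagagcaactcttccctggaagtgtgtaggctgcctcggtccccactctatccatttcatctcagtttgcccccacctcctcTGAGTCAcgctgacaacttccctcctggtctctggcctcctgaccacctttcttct
Both strands were searched for the letters TGTGGT (RUNX factors), TGANTCA (AP-1), GGGCGG (the GC box), GAGGAAGT (PU.1) and GTCTAGAC (SMAD factors). The Itgax window held 1 AP-1 match, 56 bases upstream of the start, the Itgb1 window held 1 GC box, 151 bases upstream, and the Itga1 window held none of these letters. No match overlapped another. Of 32851 windows of the same length, 6.75% held the AP-1 letters, 32.7% the GC box, 14.0% the RUNX letters, 2.44% those of PU.1 and 0.167% those of SMAD factors. A match of letters is a description of the sequence and was not tested for use in these cells.

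Itgae, which encodes the alpha chain CD103, differed after DTx in opposite directions in the 2 cell types, and passed in CD4 cells. Levels were 791 and 130.1 normalized reads in CD4 PBS, against 2357, 9253 and 9008 in CD4 DTx, so all 3 DTx libraries were above both PBS libraries. In CD8 cells it was at 8515 and 6974 in CD8 PBS and at 1413, 5684 and 3033 in CD8 DTx, so all 3 DTx libraries were below both PBS libraries. In CD4 cells Itgae rose with a log2 fold change of 4.17 (SE 0.76, BH-adjusted p = 0.00345 by limma), a call that was lost without CD4 PBS replicate 3, the library with the lowest level (2.88, BH-adjusted p = 0.0629 by limma). In CD8 cells the log2 fold change of -1.41 (SE 0.76, 95% interval -3.07 to 0.25) did not pass (BH-adjusted p = 0.260 by limma). This fold change was chosen for naming after its values were seen, as was the difference between the cell types. The effect in CD4 cells exceeded that in CD8 cells by 5.58 on the log2 scale (SE 1.08, 95% interval 3.23 to 7.93), which did not pass over all genes (interaction term, BH-adjusted p = 0.179 by limma). In that test 0 of the 10 members passed by limma or by edgeR, 3 of 10 had an unadjusted p under 0.05 (limma), and 0.0474% of all tested genes passed. Itgae passed it with DESeq2 on recovered reads (adjusted p = 1.30e-04), with a block for the replicate number (BH-adjusted p = 0.0483 by limma) and without CD4 DTx replicate 1, the lowest of the CD4 DTx libraries (6.23, BH-adjusted p = 0.0490 by limma).

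Itgb7, the partner of Itgae, was plentiful in every library. It was at 32761 and 31027 normalized reads in CD4 PBS, against 35816, 75627 and 47723 in CD4 DTx. It was at 30010.0 and 33373 in CD8 PBS, at 23090.3, 47688 and 26964 in CD8 DTx and at 51081, 37654 and 50804 in Treg PBS. The CD8 groups overlapped, and Itgb7 passed in none of the comparisons.

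Of the leukocyte beta chain and its main partner, Itgb2 rose in CD8 cells. Itgb2 was at 20238 and 19610.5 normalized reads in CD8 PBS and at 37369, 48067 and 35785 in CD8 DTx, a log2 fold change of 1.01 (SE 0.21, BH-adjusted p = 0.0107 by limma). It was at 19602 and 21148 in CD4 PBS, at 33332, 30579.6 and 27452 in CD4 DTx and at 30495, 22657 and 27298 in Treg PBS. All DTx libraries were above all PBS Tconv libraries, and the change in CD4 cells did not pass. The CD8 call was lost without either CD8 PBS library (BH-adjusted p = 0.0624 by limma without replicate 2 and 0.129 without replicate 3). Itgal, the alpha chain of LFA-1, was at 16883 and 14511 in CD4 PBS, at 19247, 30077 and 31865 in CD4 DTx, at 20546 and 17146 in CD8 PBS and at 17315, 31415 and 42912 in CD8 DTx. The CD8 groups overlapped, and Itgal passed in neither DTx comparison. With a block for the replicate number it passed in CD4 cells (1.01, BH-adjusted p = 0.0133 by limma) and CD8 cells (0.86, BH-adjusted p = 0.0314 by limma).

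Itgb3, the beta chain of the vitronectin receptor, rose in CD8 cells. It was at 829 and 363 normalized reads in CD8 PBS and at 1887, 1583 and 7109.6 in CD8 DTx, where replicate 3 was far above the others. Its log2 fold change was 2.33 (SE 0.66, BH-adjusted p = 0.0415 by limma), and the call was lost without CD8 DTx replicate 1 (0.0590) or 3 (0.0600) and without CD8 PBS replicate 2 (0.0611) or 3 (0.377), all adjusted p-values of limma. The Itgb3 call in CD8 cells was also lost with edgeR, with equal library totals, without the mean trend and in a fit of these groups alone. In CD4 PBS Itgb3 was at 3656 and 1376, against 3899, 6890.3 and 11709.8 in CD4 DTx. Every CD4 DTx library was above both CD4 PBS libraries, the lowest only slightly, and the change did not pass. Itgav, an alpha partner of Itgb3, was at 577 and 509 in CD4 PBS, at 391, 1341 and 1348 in CD4 DTx, at 832 and 535 in CD8 PBS and at 728, 743 and 2455 in CD8 DTx. DTx and PBS libraries overlapped in both cell types. Itga4, the alpha chain of the VCAM1 receptor, was at 3819.6 and 3119 in CD4 PBS, at 4844, 2965 and 3139 in CD4 DTx, at 3543 and 2767 in CD8 PBS and at 5379, 5356 and 5949 in CD8 DTx. Its CD4 groups overlapped, its CD8 DTx libraries were above both CD8 PBS libraries, and it passed in neither comparison. With a block for the replicate number it passed in CD8 cells (0.71, BH-adjusted p = 0.0438 by limma).

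The integrins of tumor Treg cells were then compared with those of Tconv cells in Treg-sufficient tumors. Itgae, Itgav and Itga1 were higher in Treg PBS than in CD4 PBS, 3 of the 10 members with none lower, where 20.4% of all tested genes passed in either direction. Itgav was higher and Itgax lower in Treg PBS than in CD8 PBS, 2 of 10, where 18.7% of all tested genes passed. Itgax and Itgae were higher in CD8 PBS than in CD4 PBS, 2 of 10, where 1.08% of all tested genes passed. The shares passing as higher were 13.5%, 11.9% and 0.837%, and 6.75% passed as lower in Treg PBS than in CD8 PBS. All libraries of the first-named group were above all of the second for 5, 4 and 3 of the 10 members, against 29.2%, 29.7% and 21.7% of all tested genes, and all Treg PBS libraries were below both CD8 PBS libraries for 2 members, against 28.2%. Itga4 was lower in all Treg PBS libraries than in both CD4 PBS libraries (log2 fold change -0.57, BH-adjusted p = 0.132 by limma). Itgb3 was lower in both CD8 PBS libraries than in both CD4 PBS libraries (-2.03, BH-adjusted p = 0.407 by limma). The share of all tested genes lying below was not counted for these comparisons. The comparisons of Treg PBS with CD4 PBS and with CD8 PBS share the Treg libraries, and the third shares a group with each of them. CD4 PBS and CD8 PBS are also the controls of the DTx comparisons.

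Itgae was at 8505, 8186 and 12594 normalized reads in Treg PBS. That was far above CD4 PBS, with a log2 fold change of 4.89 (SE 0.76, BH-adjusted p = 8.44e-04 by limma), and the call held with each library left out in turn. CD8 PBS overlapped with Treg PBS and also stood above CD4 PBS, by a log2 fold change of 4.58 (SE 0.84, BH-adjusted p = 0.0195 by limma). The latter call was lost without CD4 PBS replicate 3 (0.166) and without CD8 PBS replicate 2 (0.151) or 3 (0.0848), adjusted p-values of limma.

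Itgav was at 2299, 2863 and 4111 normalized reads in Treg PBS, above every library of CD4 PBS and CD8 PBS. The melanocyte marker sum was also highest in Treg PBS, and the part of other cells in the Itgav levels was not tested. The log2 fold change of Itgav was 2.47 against CD4 PBS (SE 0.59, BH-adjusted p = 0.0119 by limma) and 2.17 against CD8 PBS (SE 0.59, BH-adjusted p = 0.0241 by limma). The first call was lost without CD4 PBS replicate 2 (0.0640) or 3 (0.0850), and the second without Treg PBS replicate 2 (0.0571) or 3 (0.0651) and without CD8 PBS replicate 2 (0.0634) or 3 (0.200), adjusted p-values of limma. Itga1 was higher in Treg PBS than in CD4 PBS by a log2 fold change of 2.46 (SE 0.72, BH-adjusted p = 0.0301 by limma). This call was lost without any 1 of the Treg PBS libraries (0.0621, 0.0625 and 0.0671) and without CD4 PBS replicate 2 (0.318). The Itga1 call was also lost with edgeR, without the mean trend and in a fit of these groups alone. With a block for the replicate number Itga4 also passed, with Treg PBS below CD4 PBS (-0.68, BH-adjusted p = 0.0344 by limma). Itgax was lower in Treg PBS than in CD8 PBS by 6.43 on the log2 scale (log2 fold change -6.43, SE 1.13, BH-adjusted p = 0.00225 by limma). Against the floor, it was at least 74.5-fold higher in CD8 PBS than in CD4 PBS (BH-adjusted p = 0.00865 by limma), a call that was lost without CD8 PBS replicate 2 (0.106) or CD4 PBS replicate 2 (0.0507). Without CD8 PBS replicate 2 the bound was 26.7-fold.

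Tconv cells of Treg-ablated tumors were also set beside Treg cells. In CD4 DTx 4 of the 10 members passed as higher than in Treg PBS and none as lower, where 7.91% of all tested genes passed in either direction and 3.36% as higher. In CD8 DTx 5 of the 10 passed as higher and none as lower, where 8.6% of all tested genes passed and 3.88% as higher. With the study's rule of over 4-fold, 4 and 3 of the 10 passed, against 4.01% and 4.93% of all tested genes. All DTx libraries were above all Treg PBS libraries for 6 of the 10 in each case, against 10.2% in CD4 DTx and 8.71% in CD8 DTx. All were below for 1 member in each, against 15.2% and 13.9%, namely Itgav in CD4 DTx (log2 fold change -1.75, BH-adjusted p = 0.0647 by limma) and Itgae in CD8 DTx (-1.72, BH-adjusted p = 0.173 by limma). With a block for the replicate number Itgav passed as lower in CD4 DTx (-1.75, BH-adjusted p = 0.0154 by limma) and in CD8 DTx (-1.45, BH-adjusted p = 0.0355 by limma), and Itgal (1.11, BH-adjusted p = 0.00531 by limma) and Itga4 (0.61, BH-adjusted p = 0.0471 by limma) passed as higher in CD4 DTx. Both comparisons share the Treg PBS libraries. Itgb1 was higher in CD4 DTx by a log2 fold change of 2.84 (SE 0.41, BH-adjusted p = 0.00143 by limma) and in CD8 DTx by 2.01 (SE 0.41, BH-adjusted p = 0.00890 by limma). Itgax was higher by 6.60 (SE 1.01, BH-adjusted p = 0.00203 by limma) and 10.65 (SE 1.01, BH-adjusted p = 6.24e-05 by limma), against Treg libraries of which 2 of 3 were at 0. Itga1 was higher by 2.94 (SE 0.64, BH-adjusted p = 0.0156 by limma) and 4.29 (SE 0.64, BH-adjusted p = 0.00129 by limma). All libraries of both DTx groups were above all Treg libraries for these 3 genes. The Itga1 call in CD4 DTx was lost without Treg PBS replicate 1 (0.0572) or 2 (0.0595) or CD4 DTx replicate 3 (0.0509), adjusted p-values of limma.

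The remaining calls against Treg cells were each made in 1 of the DTx groups. Itgb3 was at 1346, 1223 and 1992 normalized reads in Treg PBS and was higher in CD4 DTx by a log2 fold change of 2.19 (SE 0.59, BH-adjusted p = 0.0410 by limma). Leaving out any 1 of the Treg PBS libraries (0.118, 0.138 and 0.0620) or CD4 DTx replicate 2 (0.0945) or 3 (0.141) ended that call, all adjusted p-values of limma. Fits with equal library totals or without the mean trend also ended it. Itga4 was at 2878, 2401 and 1832 in Treg PBS, below every CD8 DTx library, and was higher in CD8 DTx by 1.25 (SE 0.23, BH-adjusted p = 0.00412 by limma). Itgal was at 9783, 11475 and 16317 in Treg PBS, also below every CD8 DTx library, and was higher there by 1.22 (SE 0.32, BH-adjusted p = 0.0352 by limma). The Itgal call was lost without Treg PBS replicate 1 (0.131) or 2 (0.117) and without CD8 DTx replicate 2 (0.116) or 3 (0.102), adjusted p-values of limma. It was also lost with equal library totals, without the mean trend and in a fit of these groups alone.

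The DTx groups were compared with each other. None of the 10 members passed in CD8 DTx vs CD4 DTx, where 1.64% of all tested genes did, and 4 of 10 had an unadjusted p under 0.05 (limma). With edgeR 1 member passed and with DESeq2 0. For 4 of the 10 all CD8 DTx libraries were above all CD4 DTx libraries, as for 7.88% of all tested genes. Itgax differed most, with a log2 fold change of 4.05 (SE 1.01, 95% interval 1.85 to 6.25, BH-adjusted p = 0.0767 by limma). It passed with a block for the replicate number (4.05, SE 0.89, BH-adjusted p = 0.0370 by limma), the numbers pairing these groups by the measure given with the processing. It also passed with edgeR on recovered reads (adjusted p = 0.0491), with a pseudocount of 10 (BH-adjusted p = 0.00298 by limma) and in a fit of these groups alone (BH-adjusted p = 0.0162 by limma). In that last fit Itga1 passed too, higher in CD8 DTx by 1.35 (SE 0.13, BH-adjusted p = 0.0234 by limma). The 95% intervals of the other differences, CD8 DTx minus CD4 DTx on the log2 scale, were 0.15 to 1.13 for Itga4, -0.01 to 0.81 for Itgb2, -0.59 to 0.82 for Itgal, -0.85 to 1.46 for Itgav, -1.39 to -0.02 for Itgb7, -1.72 to 0.06 for Itgb1, -2.49 to 0.48 for Itgae and -2.58 to -0.01 for Itgb3.

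The balance of alpha and beta chains was described per kb of exon, as the level of an alpha transcript in percent of its beta partner in the same library, without a test. Itgae stood at 14.7% ± 2.87 of Itgb7 in Treg PBS (SD, n = 3) and 17.2% ± 3.69 in CD8 PBS (n = 2), but at 0.989% ± 0.985 in CD4 PBS (n = 2). After DTx it stood at 8.77% ± 4.29 in CD4 cells and 6.81% ± 2.21 in CD8 cells (n = 3 each). Libraries of the DTx groups overlapped in this measure, and those of CD4 PBS and CD8 PBS did not. Itgax stood at 7.88% ± 2.96 of Itgb2 in CD8 DTx and at 0.600% ± 0.0598 in CD4 DTx, whereas Itgal, which shares Itgb2, stood at 35.9% ± 17.8 and 42.2% ± 13.9. The Itgal transcript was thus above the Itgax transcript per kb in every library of both groups.

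**Figure D4:**
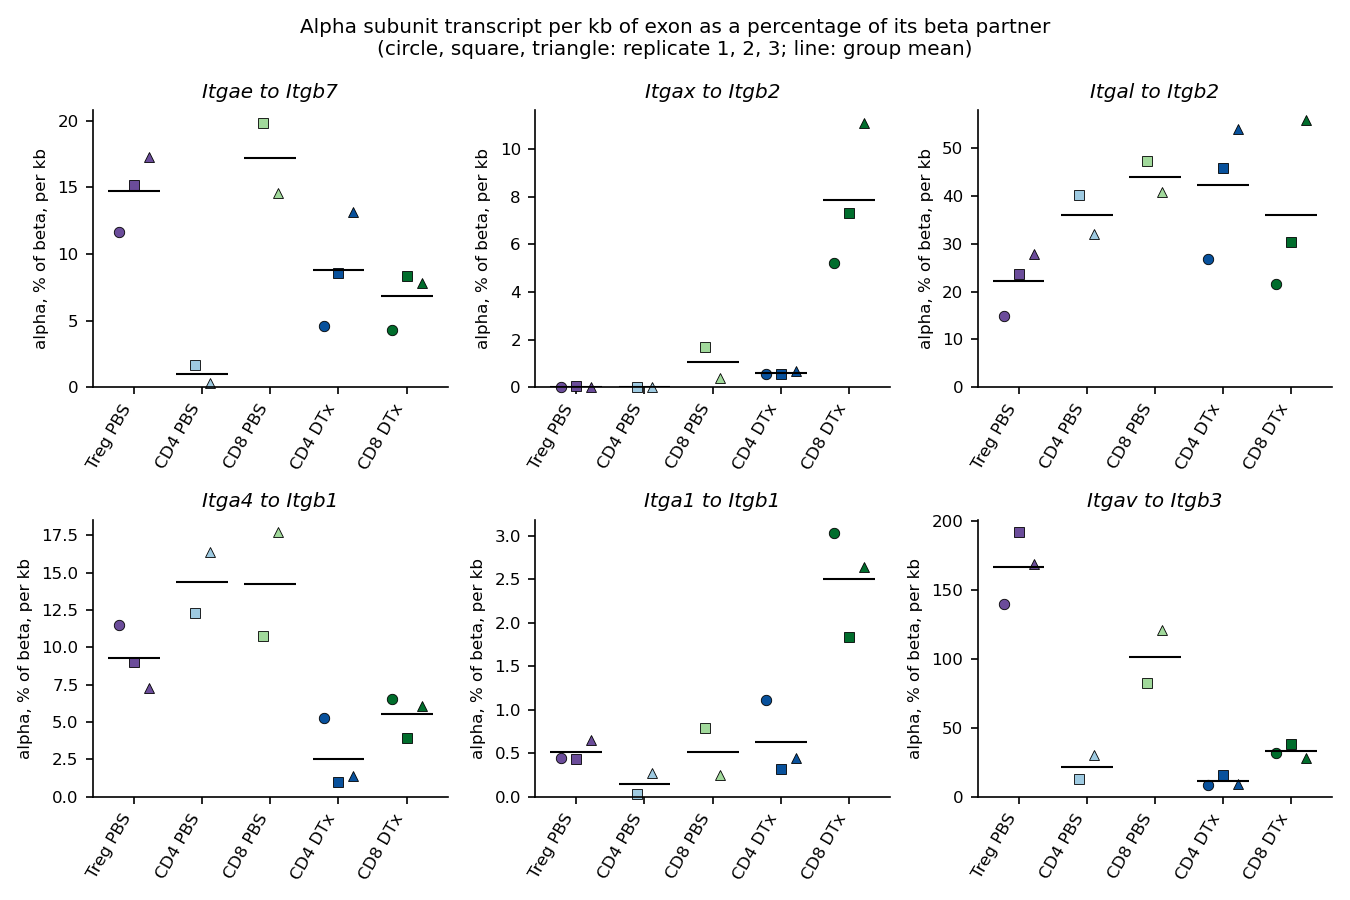
Each panel plots 1 alpha chain as a percentage of a beta chain that it pairs with, both per kb of exon, in each library of the 5 groups, with the group mean as a line. Itgae as a percentage of Itgb7 is lowest in both CD4 PBS libraries, Itgax as a percentage of Itgb2 is highest in the 3 CD8 DTx libraries, and Itga4 as a percentage of Itgb1 is lower in every DTx library than in every PBS library.

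Against Itgb1, Itga4 stood at 14.4% ± 2.89 in CD4 PBS and 2.55% ± 2.37 in CD4 DTx, and at 14.2% ± 4.90 in CD8 PBS and 5.50% ± 1.39 in CD8 DTx. The DTx values were below the PBS values in every library of either cell type. Itga1 stood at 2.50% ± 0.611 of Itgb1 in CD8 DTx and at 0.624% ± 0.423 in CD4 DTx. Itgav stood at 167% ± 26.0 of Itgb3 in Treg PBS and at 102% ± 27.2 in CD8 PBS, but at 21.6% ± 12.3 in CD4 PBS, 11.2% ± 4.16 in CD4 DTx and 32.8% ± 5.17 in CD8 DTx. Treg PBS was thus the group in which the Itgav transcript exceeded that of Itgb3 in all libraries.

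The other integrin subunits gave a mixed picture. Of 16 subunits listed beside the members, 12 were in the table and all 12 were tested. In CD4 DTx vs CD4 PBS Itgb5 and Itga2 rose and Itga5 and Itga6 fell, and in CD8 DTx vs CD8 PBS Itga2 rose and none fell. The shares of all tested genes that passed in either direction were 12.7% and 10.9%. Itga2, which gives the second collagen receptor with Itgb1, was at 57.5 to 68.3 normalized reads in CD4 PBS against 844 to 1552 in CD4 DTx. Its log2 fold change was 4.25 in CD4 cells (SE 0.89, BH-adjusted p = 0.00755 by limma) and 3.43 in CD8 cells (SE 0.89, BH-adjusted p = 0.0288 by limma). Itga6, a laminin receptor chain, was at 3943 to 5176 in CD4 PBS against 869.7 to 1396 in CD4 DTx, a log2 fold change of -1.94 (SE 0.42, BH-adjusted p = 0.00968 by limma). Itga5, the fibronectin receptor chain, was at 145 to 153 in CD4 PBS and at 0 in all CD4 DTx libraries, which is 37.6-fold lower or more (BH-adjusted p = 0.0266 by limma). Itgb5, a partner of Itgav, was at most 1.32 in CD4 PBS and at 45.8 to 196 in CD4 DTx, the former under the detection floor (BH-adjusted p = 0.00678 by limma). The median log2 fold change of the 12 was 0.00 in CD4 cells and 1.65 in CD8 cells, beside -0.04 and -0.03 over all tested genes.

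**Figure D5:**
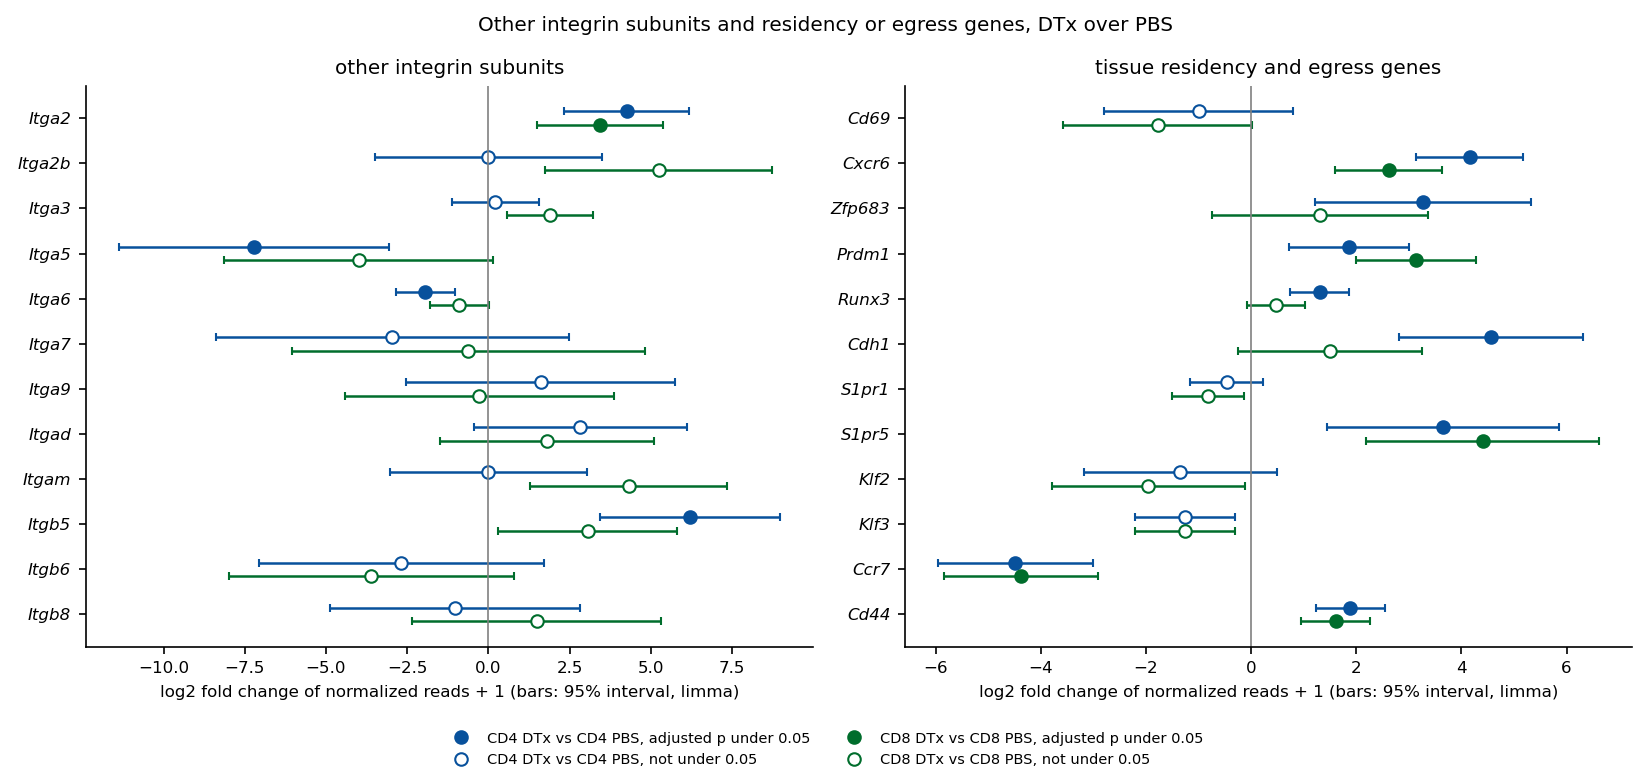
Log2 fold changes of normalized reads + 1 with 95% intervals from limma are plotted for 12 other integrin subunits (left) and 12 residency and egress genes (right), DTx over PBS, in CD4 (blue) and CD8 (green) cells, filled where the adjusted p was under 0.05. Itga2, Cxcr6, Prdm1, S1pr5 and Cd44 are filled to the right of 0, and Ccr7 to the left, in both cell types.

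The proteins that switch integrins on and tie them to the actin skeleton did not move in 1 direction as a list. Of 32 listed genes 29 were tested, and in each DTx comparison 2 rose and 2 fell, with medians of -0.01 in CD4 cells and 0.05 in CD8 cells. Over all tested genes, 12.7% passed in either direction in CD4 cells and 10.9% in CD8 cells. Zyx, which encodes zyxin of adhesion sites, rose with a log2 fold change of 1.97 in CD4 cells (SE 0.22, BH-adjusted p = 1.82e-04 by limma) and 1.23 in CD8 cells (SE 0.22, BH-adjusted p = 0.00434 by limma). Actn1, which encodes the actin linker alpha-actinin, fell by 4.75 in CD4 cells (log2 fold change -4.75, SE 0.44, BH-adjusted p = 8.08e-05 by limma) and by 2.99 in CD8 cells (log2 fold change -2.99, SE 0.44, BH-adjusted p = 0.00181 by limma). Ptk2, which encodes focal adhesion kinase, was at 514 to 614 normalized reads in CD4 PBS and at most 3.95 in CD4 DTx (BH-adjusted p = 0.00686 by limma). It was at 236 to 399.9 in CD8 PBS and at 0 in all CD8 DTx libraries, which is 78.7-fold lower or more (BH-adjusted p = 0.00971 by limma). The other genes that rose were Rap1a in CD4 cells (0.76, SE 0.20, BH-adjusted p = 0.0252 by limma), the GTPase that activates integrins, and Lims1 in CD8 cells (0.72, SE 0.21, BH-adjusted p = 0.0498 by limma), an adaptor of integrin-linked kinase.

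Among 13 integrin ligand genes 7 were tested, and in T cells these report what the T cells or cells sorted with them express. Cdh1, which encodes the CD103 ligand E-cadherin, rose in CD4 cells, where it was at 11.9 to 86.1 normalized reads in CD4 PBS against 539 to 1576 in CD4 DTx (log2 fold change 4.56, SE 0.80, BH-adjusted p = 0.00281 by limma). Fn1, which encodes fibronectin, was at 50.7 to 60.7 in CD8 PBS and at most 1.35 in CD8 DTx (BH-adjusted p = 0.0447 by limma). No other ligand gene passed in either DTx comparison, where 12.7% (CD4) and 10.9% (CD8) of all tested genes did. The medians of the 7 were 0.60 and 0.34.

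Genes of tissue residency and egress were read beside the integrins, since CD103 and the collagen receptor are used to mark resident T cells. Of the 12 described, all tested, 7 rose and 1 fell in CD4 DTx and 4 rose and 1 fell in CD8 DTx, with medians of 1.58 and 0.89 on the log2 scale. Among all tested genes, 12.7% and 10.9% passed in either direction, and 8.64% and 7.4% as higher. Ccr7, the chemokine receptor that guides T cells into lymph nodes, fell in both, with log2 fold changes of -4.49 (SE 0.67, BH-adjusted p = 0.00102 by limma) in CD4 cells and -4.37 in CD8 cells (SE 0.67, BH-adjusted p = 0.00217 by limma). Cxcr6, a chemokine receptor of resident T cells, rose by 4.16 (SE 0.47, BH-adjusted p = 1.88e-04 by limma) and 2.61 (SE 0.47, BH-adjusted p = 0.00468 by limma), and Cd44, a receptor for hyaluronan, by 1.89 and 1.61 (SE 0.30 each, BH-adjusted p = 0.00159 and 0.00597 by limma). S1pr5, a receptor that guides exit from tissue and is low in resident cells, also rose, by 3.65 (SE 1.02, BH-adjusted p = 0.0344 by limma) and 4.40 (SE 1.02, BH-adjusted p = 0.0167 by limma), and so did Prdm1, which encodes the factor Blimp-1 (1.85 and 3.14, SE 0.52 each, BH-adjusted p = 0.0365 and 0.00329 by limma). Cdh1 and Zfp683, which encodes the residency factor Hobit (3.27, SE 0.94, BH-adjusted p = 0.0399 by limma), were among 3 genes that passed in CD4 and not in CD8 cells, and the difference between the cell types did not pass for either (limma interaction term, lowest adjusted p = 0.992). Cd69, Klf2 and S1pr1, also on the list, passed in neither DTx comparison. In CD4 DTx they were at 4845 to 8922, 4119 to 8300 and 16693 to 21272 normalized reads. In CD4 PBS they were at 6002 to 29030, 9917 to 23965 and 22277 to 31994. In CD8 DTx they were at 2598 to 4982, 2985 to 8790 and 7457 to 13410. In CD8 PBS they were at 5587 to 32260, 9424 to 30850 and 15442 to 21450.

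Genes whose pattern over the 13 libraries was most like that of each changed integrin were listed by Pearson r of log2(normalized reads + 1), as a description. For Itgax they were Klrc2 (0.94), Slamf7 (0.94) and Klre1 (0.93), of which Klrc2 and Klre1 are killer lectin-like receptors. For Itgae they were Slc2a6 (0.89), Kctd11 (0.87) and Zfp316 (0.85). For Itgb1 they were Stmn2 (0.97), Iqgap2 (0.95) and Aim1 (0.95), and for Itga1 Soat2 (0.95), Ybx3 (0.95) and F2rl2 (0.94). For Itgb2 they were Pfkp (0.95), Ap1s2 (0.94) and Bag1 (0.94), and for Itgb3 Mettl7a1 (0.93), L1cam (0.90) and Trim36 (0.89). The points share their groups, so a gene that differs between the same groups reaches a high r.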

How the data were processed

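RNA was extracted from T cells sorted from tumors, made into SmartSeq2 libraries and sequenced, per the labels. For bulk libraries the study's methods name a SMARTer Ultra Low-input kit instead. Reads were aligned by the authors with hisat2 to mouse build NCBIM37 (mm9) and uniquely mapping reads were kept, and the submitters' processing notes name cutadapt, FastQC and DESeq2. The counter, the strand setting and the gene filter are not given in the sources used here, so values of overlapping genes are uncertain. The authors deposited a normalized signal per gene and library, named FPM, which their methods describe as scaled to library size with a correction from intergenic reads. Dividing each library's values by its smallest step gave whole numbers for 100% of genes, with a tolerance of 0.01 of a read, so the signal was taken as counts divided by a size factor, and whole reads were recovered. All 13 columns were matched to samples by title, and 0 columns were left unused.

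Values were fitted as log2(value + 1) with limma 3.58.1 in R 4.3.3 (eBayes with a mean trend), over all 13 libraries with 1 mean per group, for genes that reached 10 normalized reads in 2 or more libraries. Adjusted p-values are Benjamini-Hochberg over 12667 genes per comparison, 9 comparisons were made, and passing means an adjusted p under 0.05. Fold changes on this scale understate those of low genes. Standard errors and 95% intervals are those of the model. Exon length per gene was the union of protein-coding exons in the basic GENCODE vM21 annotation (GRCm38). The edgeR 4.0.16 quasi-likelihood test and DESeq2 1.42.0 were run on recovered reads, beside other pseudocounts, filters and scalings, and edgeR called 1395 genes in CD4 DTx vs CD4 PBS and 1148 in CD8 DTx vs CD8 PBS. The limma fit was also run on counts simulated for CD4 DTx vs CD4 PBS. These had the same spread beyond counting error for all genes and no effect of replicate number. That run therefore does not bear on the calls of single members.

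Replicate numbers come from the titles. Deviations from the group means correlated between same-numbered CD4 DTx and CD8 DTx libraries at r of 0.360, 0.207 and 0.590 across genes for numbers 1, 2 and 3, so the numbers were taken to pair these groups. Between CD4 PBS and CD8 PBS r was 0.189 at numbers 2 and 3, which is 1 value, since deviations in groups of 2 libraries mirror each other. Those groups were not taken as paired. Blocked values are given where the block changes a member's call, also for groups not taken as paired. The members, gene lists, motifs and the rule for named genes were chosen with earlier results of these data known. By that rule all members were named with every value, fold changes were given where the adjusted p was under 0.05, and genes of the other lists were named where they passed in a DTx comparison, up to 6 per list and direction. Xcr1, Cd68, Lyz2, Cd69, Klf2 and S1pr1, and fold changes of members that did not pass, were named after their values were seen. 1 gene of the residency and egress list is not reported here.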

Additional observations from a re-analysis of the deposited data

Results flagged for a closer look

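The response of Itgae to DTx differed in direction between the cell types. Every CD4 DTx library was above both CD4 PBS libraries and every CD8 DTx library was below both CD8 PBS libraries. The log2 fold change in CD4 cells minus that in CD8 cells was 5.58 (SE 1.08), which did not pass over all genes (interaction term, BH-adjusted p = 0.179 by limma). Over the alternatives the adjusted p of this difference fell under 0.05 with the replicate number as a block (limma, 0.0483), with DESeq2 (1.30e-04) and without CD4 DTx replicate 1 (limma, 0.0490). The 3 CD8 DTx libraries spread from 1413 to 5684 normalized reads.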

How the results depend on the processing

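Of 25 calls among 90 pairs of member and comparison, 8 were kept under every alternative. Values under alternatives, 498 in all, were counted for these calls and for Itgae in CD8 DTx vs CD8 PBS and in the interaction. Of them, 423 kept their direction and their side of the threshold, 72 no longer passed, 3 newly passed and 0 reversed. Those 3 were all of the Itgae interaction. Other pairs that did not pass were left out of this count, and some of them passed under an alternative, among them Itgax in CD8 DTx vs CD4 DTx. Fitting only the groups compared left 1 member passing in Treg PBS vs CD8 PBS, 0 in CD8 PBS vs CD4 PBS, 2 in CD4 DTx vs CD4 PBS, 0 in CD8 DTx vs CD8 PBS and 2 in CD8 DTx vs CD4 DTx. That fit, which holds fewer libraries, ended the DTx calls of Itgb1 and Itgae in CD4 cells (limma, adjusted p = 0.0617 and 0.0926) and of Itga1 and Itgb1 in CD8 cells (limma, adjusted p = 0.0635 and 0.0748). Without the mean trend 1 passed in CD8 PBS vs CD4 PBS and 3 in CD8 DTx vs CD8 PBS. With edgeR 1 passed in CD8 PBS vs CD4 PBS and 1 in CD8 DTx vs CD4 DTx, 1 passed in CD8 DTx vs CD4 DTx with a pseudocount of 10, 1 passed in the interaction with DESeq2, and with the rule of over 4-fold 3 in CD8 DTx vs Treg PBS. With the replicate block 7 passed in CD4 DTx vs Treg PBS, 1 in CD8 DTx vs CD4 DTx and 1 in the interaction. Same-numbered libraries correlated above 0.1 at every number for CD4 DTx with CD8 DTx, and not for Treg PBS with either (0.0366 and 0.00623 at number 2), although Y chromosome transcripts mark number 3 in all groups. The causes were not tested.

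With each library left out in turn, the members passing numbered 1 to 2 in Treg PBS vs CD4 PBS, 1 to 2 in Treg PBS vs CD8 PBS, 0 to 2 in CD8 PBS vs CD4 PBS, 3 to 4 in CD4 DTx vs CD4 PBS, 1 to 4 in CD8 DTx vs CD8 PBS, 2 to 5 in CD4 DTx vs Treg PBS, 4 to 5 in CD8 DTx vs Treg PBS and 0 to 1 in the interaction. CD8 DTx vs CD8 PBS fell to 1 without CD8 PBS replicate 3. Over all genes tested, the counts passing under all alternatives ran from 1189 to 3270 in Treg PBS vs CD4 PBS (2581 as reported), 762 to 2977 in Treg PBS vs CD8 PBS (2367), 37 to 326 in CD8 PBS vs CD4 PBS (137), 658 to 2324 in CD4 DTx vs CD4 PBS (1612), 202 to 2581 in CD8 DTx vs CD8 PBS (1377), 508 to 1739 in CD4 DTx vs Treg PBS (1002), 624 to 1585 in CD8 DTx vs Treg PBS (1089), 59 to 520 in CD8 DTx vs CD4 DTx (208) and 0 to 85 in the interaction (6). In the comparisons of Treg PBS and of DTx cells with CD4 PBS or CD8 PBS, the lowest count came without replicate 3 of that PBS group. PBS Tconv groups held 2 libraries each, and levels near the floor of 1.98 to 4.10 normalized reads are limited by depth.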
